A study of Mus musculus with 18 samples.

Results

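The genes described here are 32 oligodendrocyte and myelin genes, taken by symbol from the 52636 genes measured in every library. They were read in brain, liver and testis from male mice of the C57BL/6 strain, adults at 8 weeks of age. Mice were either knockout (KO) for Pcgf6 or wild type (WT). Each genotype had 3 poly-A RNA libraries in each tissue, 18 in all. KO libraries are numbered 4 to 6 and WT libraries 1 to 3 in the labels. The labels give the KO as a Pcgf6 knockout with no further detail of the allele, and do not say whether libraries came from separate animals, so p-values measure the spread between these libraries. Values are the authors' deposited FPKM, which count fragments per kilobase of a gene after scaling by a library size. The size implied by the values was not the total of reads per library.

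Oligodendrocytes wrap axons of the central nervous system in myelin, a stack of membrane that insulates the axon and lets impulses travel fast. The cytoplasmic faces of that membrane are held together by myelin basic protein (Mbp), Mog lies on its outermost surface and Mag on the membrane that faces the axon, and a set of enzymes supplies its unusual lipids. The cell type is specified by Olig2 and Sox10, and the late myelin programme is driven by Myrf. Pcgf6 is a subunit of the repressive complex PRC1.6, which reaches DNA partly through MAX and MGA at the E-box CACGTG and through E2F6 at E2F sites.

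In brain, 30 of the 32 genes had a log2 fold change above 0, 93.8% against 53.3% of all genes tested, but only Klk6 passed the test. The list was chosen with earlier results of these data known, so that share is a description and not independent support. Many of the genes also moved together by library, with KO 6 the highest of 6 libraries for 18 and WT 2 the lowest for 14. Genes called as higher were 0.067% of those tested in brain. The call of Klk6 was lost when any 1 library was left out and under 2 other alternatives. Klk6, a secreted protease of oligodendrocytes, measured 10.9 ± 0.781 FPKM in KO brain and 6.42 ± 0.442 FPKM in WT brain (SD, n = 3 each). The median log2 fold change of the 32 genes was 0.15, against 0.01 over all 17922 genes tested in brain. The structural myelin genes averaged higher in KO in 14 of 14 cases, with overlap between genotypes in most of them. In liver and testis no member passed the test.

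Depth lay between 18990130 and 23529098 reads per library, and between 20759022 and 23183662 in brain. In brain, 3.85 to 4.32% of the reads came from mitochondrial genes. Pcgf6 itself served as the check of the labels. In brain it measured 3.30, 4.20 and 4.42 FPKM in KO 4 to 6, against 4.58, 5.18 and 5.29 FPKM in WT 1 to 3. In liver it measured 2.66, 1.66 and 1.44 FPKM in KO libraries, against 4.99, 4.08 and 5.66 FPKM in WT libraries. In testis it measured 10.6, 9.58 and 9.58 FPKM in KO libraries, against 20.4, 19.9 and 22.3 FPKM in WT libraries. KO libraries were below WT libraries in each tissue and kept reads of the gene, with the largest share of the WT level in brain. The limma adjusted p was 1.00 in brain, 0.485 in liver and 0.0638 in testis. Every KO library was below every WT library for 4.09% of all genes tested in brain, 4.58% in liver and 4.32% in testis. In brain KO 6 and WT 1 nearly met, so Pcgf6 does not by itself settle the labels there.

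Promoter sequences were read from a set of RefSeq start-site windows (GRCm38.p6), and that set held 33 windows for 24 of the 32 genes. Each window runs from 250 bases before a start site to 50 bases after it, for 300 bases. The set held no window for Mbp, Fa2h, Enpp2, Sox10, Olig1, Myrf, Trf and Cryab. Both strands were searched for the E-box of MAX and MGA, which reads CACGTG, and for the E2F site, which reads GCGGGAA. They were also searched for the MYRF motif CTGGCAC and its variant form CTGGTAC, for the SOX motif ACAAAG and for CAGCTG, an E-box used by OLIG proteins. No motif contains another. The windows below are printed because they carry the 1 gene that passed the test and examples of members with sites of the kinds named for PRC1.6, MYRF and SOX proteins. Lines read 5′ to 3′ on the gene's strand, and capitals mark the matches, on whichever strand they were found.
Klk6, first start, chr7:43824294-43824593, plus strand, SOX motif in capitals: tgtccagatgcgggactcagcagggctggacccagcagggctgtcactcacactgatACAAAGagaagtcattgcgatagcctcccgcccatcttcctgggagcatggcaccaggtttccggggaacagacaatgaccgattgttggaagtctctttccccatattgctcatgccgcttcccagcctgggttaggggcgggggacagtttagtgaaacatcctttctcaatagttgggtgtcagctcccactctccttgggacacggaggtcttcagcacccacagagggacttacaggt
Klk6, second start, chr7:43825200-43825499, plus strand, no match: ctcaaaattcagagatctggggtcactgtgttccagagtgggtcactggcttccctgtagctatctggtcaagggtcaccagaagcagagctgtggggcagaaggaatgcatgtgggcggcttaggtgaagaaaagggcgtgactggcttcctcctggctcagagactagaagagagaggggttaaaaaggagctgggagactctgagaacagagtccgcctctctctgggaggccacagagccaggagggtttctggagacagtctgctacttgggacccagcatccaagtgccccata
Olig2, chr16:91225300-91225599, plus strand, E2F site of the reverse strand in capitals: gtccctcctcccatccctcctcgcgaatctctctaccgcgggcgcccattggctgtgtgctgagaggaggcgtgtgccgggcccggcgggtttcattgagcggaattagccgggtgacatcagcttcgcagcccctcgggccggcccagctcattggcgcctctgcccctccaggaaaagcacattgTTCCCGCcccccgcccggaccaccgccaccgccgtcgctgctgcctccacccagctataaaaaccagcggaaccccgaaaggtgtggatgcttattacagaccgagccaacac
Anln, chr9:22389157-22389456, minus strand, E-box of MAX and MGA in capitals: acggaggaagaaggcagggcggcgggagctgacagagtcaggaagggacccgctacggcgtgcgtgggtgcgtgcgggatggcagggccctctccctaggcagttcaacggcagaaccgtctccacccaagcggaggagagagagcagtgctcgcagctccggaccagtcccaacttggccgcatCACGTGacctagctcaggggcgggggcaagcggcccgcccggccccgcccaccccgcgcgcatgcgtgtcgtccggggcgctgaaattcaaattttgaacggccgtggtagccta
Opalin, chr19:41077064-41077363, minus strand, SOX, OLIG and reverse-strand MYRF motifs in capitals: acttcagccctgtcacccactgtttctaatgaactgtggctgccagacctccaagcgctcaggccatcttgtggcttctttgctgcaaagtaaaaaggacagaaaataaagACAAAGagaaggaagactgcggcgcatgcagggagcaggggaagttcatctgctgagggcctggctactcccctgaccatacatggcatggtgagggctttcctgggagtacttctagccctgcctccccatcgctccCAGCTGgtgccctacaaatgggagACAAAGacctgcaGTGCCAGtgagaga

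The E-box CACGTG was found in 6.06% of the members' windows, those of Anln and Ninj2, against 7.15% of all 32851 windows in the table. GCGGGAA was found in 3.03% of the members' windows, that of Olig2, against 4.60% of all windows. The MYRF motif CTGGCAC was in 15.2% of the members' windows, in Cnp, Hapln2, Mag and Opalin, against 5.01% of all windows. CTGGTAC was found in Mog alone, at 3.03% of the members' windows against 2.24% of all windows. ACAAAG was in 30.3% of the members' windows and 18.7% of all windows, and CAGCTG in 18.2% and 16.3%. The first and second windows of Mag overlap, so the same CTGGCAC and ACAAAG matches are counted in both. The median window held 58.7% G and C in the members and 52.7% over the table. These are matches of letters and not measured binding sites.

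Klk6 (ENSMUSG00000050063, mm10 chr7:43824499-43832030) encodes a trypsin-like protease that oligodendrocytes secrete and that is known for high levels in spinal cord and brainstem. It measured 10.7, 10.2 and 11.7 FPKM in KO 4, 5 and 6, against 6.26, 6.92 and 6.07 FPKM in WT 1, 2 and 3. The lowest KO library stood well above the highest WT library, and the difference of the means was 5.30 times the range of the WT libraries. The KO mean was 1.69 times the WT mean, with a log2 fold change of 0.75 ± 0.08 (SE) and an adjusted p of 0.0220 (limma, Benjamini-Hochberg over 17922 genes). Klk6 was 1 of 12 genes called as higher in brain. Genes called as lower made up 0.0167% of those tested, and no member was among them. With any 1 library left out the log2 fold change was 0.70 to 0.81 and the adjusted p 0.0541 to 0.151, so no such fit called it. With all 6 libraries kept, the call was also lost in a fit over 18 libraries (adjusted p = 0.143, limma) and with the replicate block (adjusted p = 0.144, limma). Klk6 had 0 reads in all 6 liver libraries and at most 0.0584 FPKM in testis.

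**Figure D1:**
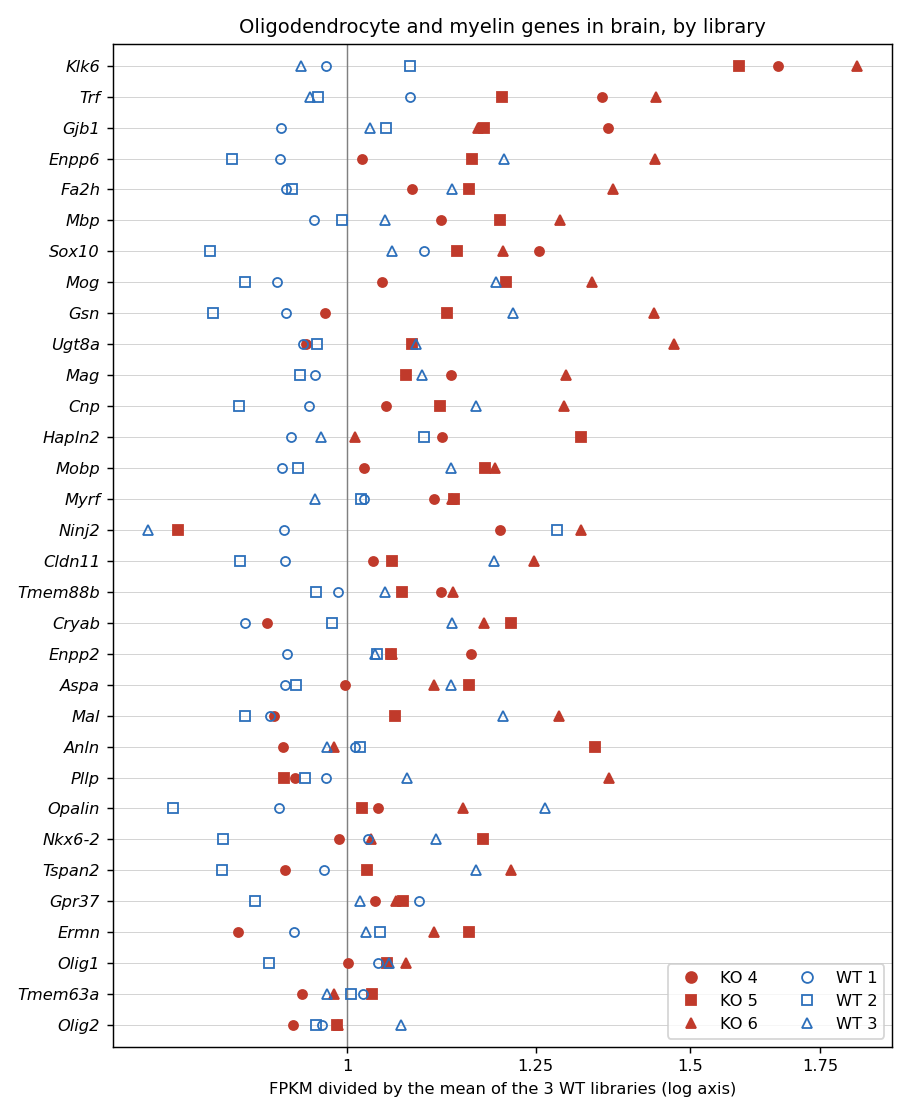
Brain FPKM of each of the 32 genes in 6 libraries, divided by the mean of the 3 WT libraries, on a log axis; filled red symbols are KO and open blue symbols WT, 1 symbol shape per library. Klk6 is set apart at the top, KO 6 is the highest library for 18 genes and WT 2 the lowest for 14.

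In brain, 8 of the 32 genes had every KO library above every WT library, which is 25% against 4.99% of all genes tested. No member had every KO library below every WT library, against 4.09% of all genes tested. The 8 genes were Klk6, Trf, Gjb1, Mbp, Sox10, Myrf, Enpp2 and Tmem88b. Separation in that direction was not particular to the members. In lists described below it held for 40% of 5 Schwann cell genes, 28.6% of 14 cholesterol synthesis genes and 20% of 10 cerebellum genes. The share was 13.8% of 29 further myelin genes and 10% of newly formed oligodendrocyte and of microglia markers. It was 0% in lists that included precursor, neuron, astrocyte and hindbrain markers. An unadjusted p under 0.05 with a higher KO level was found for 9 members, 28.1% against 2.54% of all genes tested, yet the lowest adjusted p apart from Klk6 was 0.522. In bulk tissue, more cells of a type and more RNA per cell cannot be told apart.

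Among the structural proteins of myelin, 14 of 14 genes averaged higher in KO brain, with a median log2 fold change of 0.17, and 0 were called. Mbp (ENSMUSG00000041607, mm10 chr18:82475146-82585637) binds the cytoplasmic faces of the myelin membrane together. It was the most abundant member and supplied 25.0 to 27.7% of the summed FPKM of the 32 genes. It measured 391.5, 419.9 and 451 FPKM in KO libraries, against 337, 348 and 366 FPKM in WT libraries. The groups did not overlap, and the means differed by 2.37 times the WT range. The fold was 1.20, at a log2 change of 0.26 ± 0.09 and an adjusted p of 1.00 in limma.

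Mobp (ENSMUSG00000032517, mm10 chr9:120149707-120181484), a basic protein of compact myelin, measured 153, 176 and 178 FPKM in KO libraries, against 138, 141 and 169 FPKM in WT libraries. Cnp (ENSMUSG00000006782, mm10 chr11:100574904-100591729), an enzyme of non-compact myelin, measured 106, 113 and 131 FPKM in KO libraries, against 97.0, 89.4 and 118 FPKM in WT libraries. Cldn11 (ENSMUSG00000037625, mm10 chr3:31149920-31164324), the tight junction protein of the myelin sheath, measured 103, 106 and 125 FPKM in KO libraries, against 93.0, 88.2 and 119 FPKM in WT libraries. In these 3 genes WT 1 and WT 2 lay below every KO library, while WT 3 lay within the KO range. Their log2 fold changes were 0.18 ± 0.10 for Mobp, 0.21 ± 0.12 for Cnp and 0.16 ± 0.13 for Cldn11, each with an adjusted p of 1.00 in limma.

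Gjb1 (ENSMUSG00000047797, mm10 chrX:101376378-101385629) encodes connexin 32, a gap junction protein of myelin and of hepatocytes. It measured 13.7, 11.8 and 11.7 FPKM in KO brain, against 9.28, 10.5 and 10.3 FPKM in WT brain. The genotypes did not overlap, KO 4 was highest, and the log2 fold change was 0.30 ± 0.08 with a limma adjusted p of 0.833. Tmem88b (ENSMUSG00000073680, mm10 chr4:155781591-155785874), a membrane protein, measured 25.5, 24.3 and 25.8 FPKM in KO libraries, against 22.6, 22.0 and 23.9 FPKM in WT libraries. Its groups were separate but close, with KO 5 just above WT 3, and the log2 fold change was 0.14 ± 0.05. That gene had the smallest standard error of the 32, and its adjusted p was 1.00 in limma.

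The other structural genes overlapped between genotypes. Mog, an immunoglobulin-domain protein of the outermost myelin surface, averaged 45.2 ± 5.57 FPKM in KO and 37.9 ± 6.36 FPKM in WT brain. Mag, the sialic acid binding adhesion molecule that faces the axon, averaged 61.2 ± 6.08 FPKM in KO and 52.5 ± 4.20 FPKM in WT brain. Mal, a proteolipid of membrane rafts, averaged 91.8 ± 15.7 FPKM in KO and 84.5 ± 14.8 FPKM in WT brain. These 3 and Opalin shared the pattern of Mobp, with KO libraries above WT 1 and WT 2 and WT 3 among or above them. Opalin, a sialylated membrane protein of the paranodal loops, averaged 10.02 ± 0.653 FPKM in KO and 9.39 ± 2.21 FPKM in WT brain, and WT 3 at 11.9 FPKM was its highest library. Hapln2, a link protein of the matrix at nodes of Ranvier, averaged 20.51 ± 2.81 FPKM in KO and 17.9 ± 1.498 FPKM in WT brain. Tspan2, a tetraspanin, averaged 31.0 ± 4.26 FPKM in KO and 29.4 ± 4.499 FPKM in WT brain. Ermn, a cytoskeletal protein of the outer tongue of myelin, averaged 17.9 ± 2.52 FPKM in KO and 17.0 ± 0.918 FPKM in WT brain. Pllp, the proteolipid plasmolipin, averaged 5.33 ± 1.22 FPKM in KO and 4.95 ± 0.320 FPKM in WT brain, and KO 6 stood apart at 6.74 FPKM. None of the 8 passed the test, with adjusted p at 1.00 in limma for each. In GENCODE M21 Pllp shares 54.2% of its exonic bases with Gm45767 on the opposite strand, which had 50 to 80 reads in a brain library against 242 to 378 for Pllp. Such overlaps were found for 10 of the 32 genes, and no source used here says that counting used the strand.

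**Figure D2:**
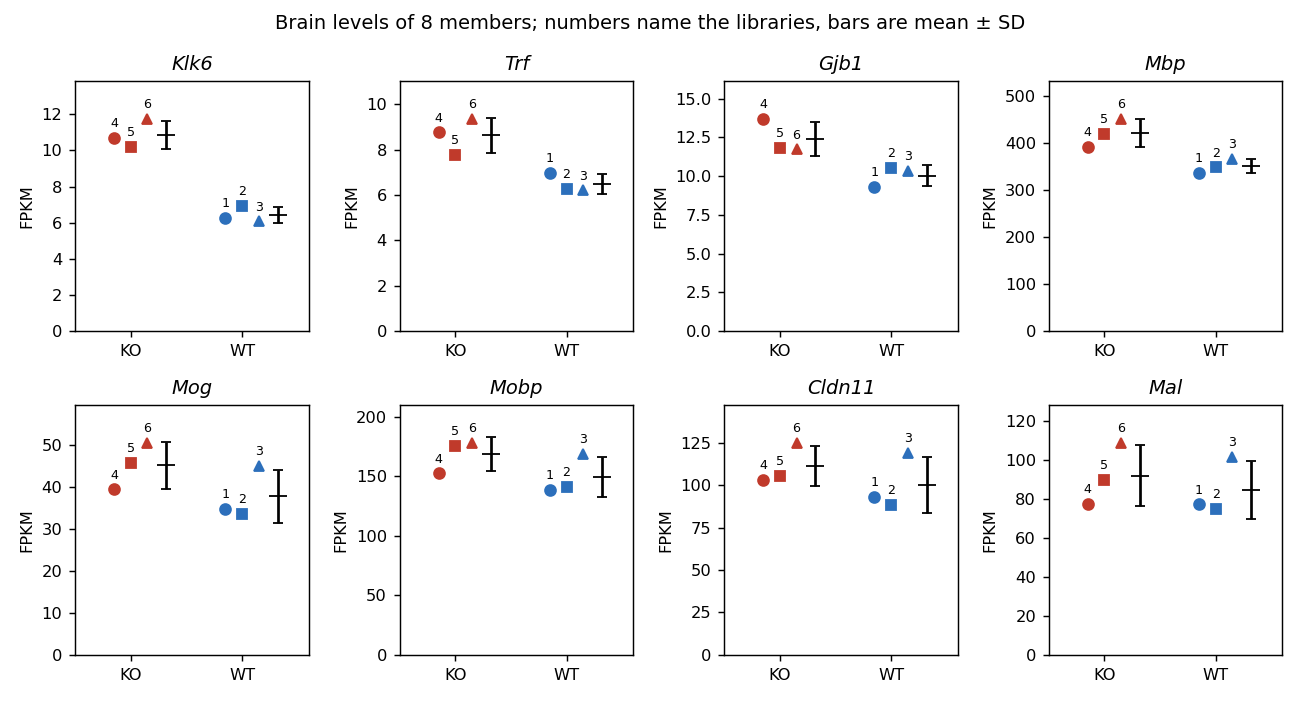
Brain FPKM of Klk6, Trf, Gjb1, Mbp, Mog, Mobp, Cldn11 and Mal in KO libraries (left, red) and WT libraries (right, blue), each on an axis from 0; numbers name libraries and black bars are mean ± SD. In the first 4 genes the genotypes are separate, and in the last 4 WT 3 lies within the KO range.

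Of the genes for lipid, acetate and iron metabolism, 6 of 6 averaged higher in KO brain, with a median log2 fold change of 0.23, and 0 were called. Trf (ENSMUSG00000032554, mm10 chr9:103204001-103230444) encodes transferrin, the iron carrier that oligodendrocytes make in brain. It measured 8.75, 7.78 and 9.34 FPKM in KO brain, against 6.98, 6.26 and 6.20 FPKM in WT brain. The genotypes did not overlap and the means differed by 2.76 times the WT range. Trf had the second largest fold of the 32 genes, at 1.33, with a log2 fold change of 0.41 ± 0.08 and a limma adjusted p of 0.522. In GENCODE M21, 63.5% of its exonic bases are also annotated to the gene Gm20425 on the same strand. Gm20425 had 0 to 1 reads in a brain library and Trf 562 to 835, and how reads in shared bases were counted is not given in the sources used here, so the level of Trf is uncertain.

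Enpp2 (ENSMUSG00000022425, mm10 chr15:54838898-54920146) encodes autotaxin, which makes lysophosphatidic acid and is also abundant in choroid plexus. It measured 135, 123 and 123 FPKM in KO libraries, against 108, 120.4 and 120.2 FPKM in WT libraries. Its genotypes were separate by a narrow margin, WT 1 was the lowest library, and the log2 fold change was 0.12 ± 0.07 with a limma adjusted p of 1.00. The summed FPKM of 8 ependyma and choroid plexus markers was 487, 453 and 431 in KO libraries and 347, 500.0 and 455 in WT libraries, also with its lowest value in WT 1. Their part in the Enpp2 difference was not tested.

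The remaining metabolic genes overlapped between genotypes. Fa2h, which hydroxylates the fatty acids of myelin galactolipids, averaged 17.95 ± 2.25 FPKM in KO and 14.9 ± 1.72 FPKM in WT brain. Ugt8a, which makes galactosylceramide, averaged 17.8 ± 4.14 FPKM in KO and 15.3 ± 1.13 FPKM in WT brain, and KO 6 stood apart at 22.5 FPKM. Aspa, which frees acetate from N-acetylaspartate, averaged 2.97 ± 0.221 FPKM in KO and 2.74 ± 0.310 FPKM in WT brain. Enpp6, a choline phosphodiesterase of newly myelinating cells, averaged 1.82 ± 0.324 FPKM in KO and 1.51 ± 0.269 FPKM in WT brain. In Fa2h, Aspa and Enpp6, WT 3 was the 1 WT library within the KO range. Adjusted p was 1.00 for each in limma.

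Of 5 transcription factors of the lineage, 4 averaged higher in KO brain, the median log2 fold change was 0.09, and 0 were called. Sox10 (ENSMUSG00000033006, mm10 chr15:79154913-79164490), the SOX factor needed for myelin gene expression, measured 20.9, 18.9 and 20.01 FPKM in KO libraries, against 18.2, 14.1 and 17.5 FPKM in WT libraries. The groups were separate, with WT 2 well below the rest, and the log2 fold change was 0.27 ± 0.10. Myrf (ENSMUSG00000036098, mm10 chr19:10208272-10240748), the membrane-released activator of myelin genes, measured 8.54, 8.75 and 8.73 FPKM in KO libraries, against 7.87, 7.84 and 7.42 FPKM in WT libraries. Both groups were tight, and the means differed by 2.16 times the WT range. The log2 fold change of Myrf was 0.17 ± 0.05, and the limma adjusted p was 1.00 for Sox10 and 0.920 for Myrf.

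Olig1, Olig2 and Nkx6-2 overlapped between genotypes. Olig2, the basic helix-loop-helix factor that specifies the lineage, averaged 13.7 ± 0.416 FPKM in KO and 14.1 ± 0.811 FPKM in WT brain. It had the lowest fold of the 32 genes, 0.972, and a log2 fold change of -0.04 ± 0.06. Its neighbour on chromosome 16, Olig1, averaged 53.0 ± 1.83 FPKM in KO and 50.9 ± 3.92 FPKM in WT brain. Nkx6-2, a homeobox factor of maturing oligodendrocytes, averaged 8.66 ± 0.790 FPKM in KO and 8.14 ± 1.02 FPKM in WT brain. In GENCODE M21 Nkx6-2 shares 12.9% of its exonic bases with Inpp5a on the opposite strand, which had 2005 to 2842 reads in a brain library against 364 to 496 for Nkx6-2.

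The other 7 genes encode a protease, a chaperone, cytoskeletal proteins, a receptor and membrane proteins. Of these, 6 averaged higher in KO brain, with a median log2 fold change of 0.13, and Klk6 was the 1 that was called. Gsn, the actin-severing protein gelsolin, averaged 25.4 ± 5.09 FPKM in KO and 21.5 ± 4.13 FPKM in WT brain. Cryab, a small heat shock protein, averaged 46.4 ± 7.003 FPKM in KO and 42.1 ± 5.24 FPKM in WT brain. Gpr37, an orphan receptor of the oligodendrocyte lineage, averaged 11.5 ± 0.199 FPKM in KO and 10.9 ± 1.05 FPKM in WT brain. The KO libraries of Gpr37 were close together and lay within the WT range.

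Anln, the actin-binding protein anillin, averaged 4.41 ± 0.911 FPKM in KO and 4.07 ± 0.0853 FPKM in WT brain. KO 5 at 5.45 FPKM stood above the other 5 libraries, and with it left out the log2 fold change was -0.06. Tmem63a, a mechanosensitive channel, averaged 7.54 ± 0.314 FPKM in KO and 7.64 ± 0.162 FPKM in WT brain and was, with Olig2, 1 of 2 members lower in KO. Ninj2, the adhesion protein ninjurin, was the least abundant member, at 1.70 ± 0.400 FPKM in KO and 1.53 ± 0.389 FPKM in WT brain. It had the largest standard error, 0.22 on the log2 scale, and its lowest library held 31 reads. The limma adjusted p was 1.00 for these 6 genes.

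The libraries of a genotype were not alike in the level of the 32 genes. The summed FPKM was 1420 in KO 4, 1515 in KO 5 and 1643 in KO 6, against 1272 in WT 1, 1271 in WT 2 and 1468 in WT 3. That is 1526 ± 112 in KO and 1337 ± 114 in WT brain, a ratio of 1.14, and WT 3 lies above KO 4. On the log2 scale the mean deviation of the 32 genes from the 6-library mean was -0.00, 0.08 and 0.19 in KO 4, 5 and 6, against -0.13, -0.15 and 0.02 in WT 1, 2 and 3. KO 6 was the highest of 6 libraries for 18 genes and WT 2 the lowest for 14. Within KO, KO 4 was lowest for 21 genes, and within WT, WT 3 was highest for 20.

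The members can be sorted by which WT libraries lay below every KO library, a description made from the values. In the 8 genes with all 3 WT libraries below, WT 3 was 0.922 to 1.08 times the mean of WT 1 and WT 2. In 11 genes every KO library was above WT 1 and WT 2 but not above WT 3, namely Mog, Mag, Mobp, Cnp, Cldn11, Opalin, Fa2h, Aspa, Enpp6, Mal and Gsn. The share of all genes tested with that pattern was not computed, so the 11 have no background to be read against. In those 11, WT 3 was 1.14 to 1.46 times the mean of WT 1 and WT 2, a ratio that the sorting itself favours. The other 13 genes had at least 1 KO library at or below WT 1 or WT 2. The difference between genotype means was larger than the WT range for 9 of the 32 genes, and the share over all genes was not computed. That ratio leaves out the spread of the KO libraries. It reached 2.16 for Anln, 1.24 for Ugt8a and 1.14 for Mag, whose genotypes overlapped.

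Other genes of the lineage, not members, were read beside them. Of 29 further myelin and oligodendrocyte genes, 25 averaged higher in KO brain, with a median log2 fold change of 0.09, and 0 were called. Tubb4a, a tubulin abundant in oligodendrocytes, measured 309.6, 304 and 301 FPKM in KO libraries, against 287, 268 and 259 FPKM in WT libraries. Its groups were separate, and the log2 fold change was 0.17 ± 0.08 with a limma adjusted p of 1.00.

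Markers of earlier stages gave other values. Of 10 oligodendrocyte precursor markers, 6 averaged higher in KO brain, with a median log2 fold change of 0.02. Of 10 markers of newly formed oligodendrocytes, 5 averaged higher, with a median of -0.00. Among 14 cholesterol synthesis genes, whose product is a main lipid of myelin, 12 averaged higher in KO brain, with a median of 0.13. None of these genes was called, and whether the lists differ from the 32 genes was not tested.

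**Figure D3:**
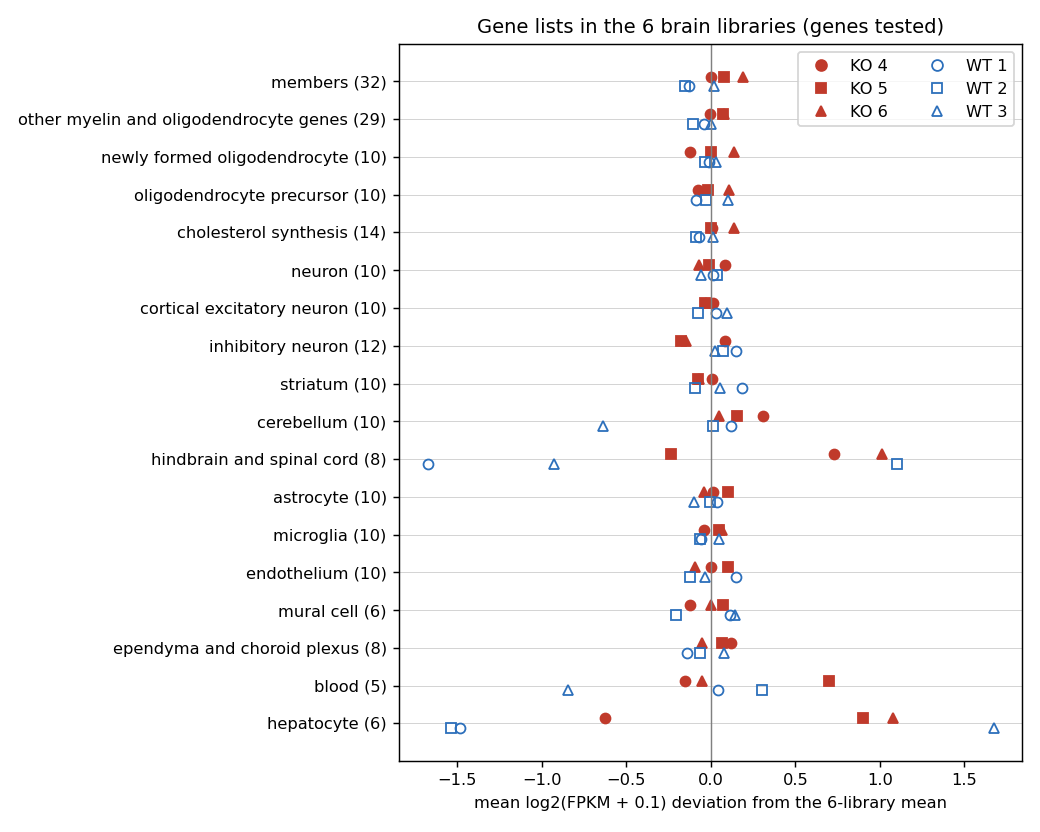
Mean deviation of log2(FPKM + 0.1) from the 6-library mean in brain for the 32 members (top) and 17 other gene lists, with the number of genes tested in brackets; red symbols are KO and open blue symbols WT. The members run from -0.15 in WT 2 to 0.19 in KO 6, and the hindbrain, cerebellum, blood and hepatocyte lists spread far more widely between libraries of 1 genotype.

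Markers of other cells and regions were also summed in each brain library. Among neuron markers, Snap25 averaged 195 ± 15.2 FPKM in KO and 195 ± 14.6 FPKM in WT brain. Of 10 neuron genes, 7 averaged higher in KO brain, with a median log2 fold change of 0.01. The medians were 0.05 for 10 astrocyte and 0.07 for 10 microglia markers, and -0.17 for 12 inhibitory neuron markers, of which 1 averaged higher in KO brain. Every KO library was below every WT library for 6 of those 12, which is 50% against 4.09% of all genes tested. Yet the summed FPKM of the 12 was 588 ± 56.2 in KO and 595 ± 58.3 in WT brain. The most abundant of them, Sst and Pvalb, had log2 fold changes of -0.02 and 0.24. Of 10 striatum markers, 0 averaged higher, with a median of -0.09. None of these marker genes was called. Of the Schwann cell list, 5 of 7 genes could be tested, 3 averaged higher in KO brain, and their summed FPKM was 13.8 to 15.2 in KO and 11.96 to 14.4 in WT libraries.

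Markers of brain regions differed in level among the brain libraries. Hindbrain and spinal cord markers, mostly Hox genes, could be tested for 8 of 15 genes and averaged higher in KO brain for 8 of 8. The median log2 fold change of those 8 was 0.97, from 0.58 to 1.54, and 0 were called. The summed FPKM of the list was 10.9, 7.21 and 11.1 in KO libraries, against 1.26, 12.7 and 2.77 in WT libraries. Its most abundant gene was Slc6a5, not a Hox gene, which ran from 1.24 FPKM in WT 1 to 6.78 FPKM in KO 4. Hoxa5 came next, from 0.0192 FPKM in WT 1 to 1.78 FPKM in KO 6. WT 2 had the highest sum, above every KO library, and the same library was lowest of 6 for 14 of the 32 members. Among the WT libraries Klk6 was also highest in WT 2, at 6.92 FPKM. Cerebellum markers summed to 352, 301 and 286 FPKM in KO libraries, against 306, 287 and 177 FPKM in WT libraries, with WT 3 the lowest. For 10 cerebellum genes 9 averaged higher in KO brain, at a median of 0.37, and 0 were called. The part of tissue sampling in the members' differences was not tested.

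Liver transcripts were present at low levels in some brain libraries. The summed FPKM of 8 hepatocyte markers was 2.68, 9.77 and 11.4 in KO libraries, against 1.497, 1.49 and 19.996 in WT libraries, with WT 3 the highest. Scaled by Alb, liver RNA would supply at most 2.90% of the reads of Trf and 1.85% of those of Gjb1 in any brain library. Klk6, Sox10, Mobp and Cldn11 have no reads in liver, so by this scaling the share is 0 for them. The part of liver RNA in the members' differences was not tested. The summed level of 6 spermatid markers came to 0.711, 11.9 and 4.43 FPKM in KO libraries, against 0.893, 0.684 and 6.18 FPKM in WT libraries.

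Across tissues the 32 genes were compared as TPM, the FPKM of each library rescaled so that every library has the same sum. Brain held the highest level for 29 genes, and for 27 of them all 6 brain libraries were above the other 12. In WT mice the brain supplied at least 90% of the summed level over the 3 tissues for 17 genes. The order in WT brain ran from Mbp at 1555 ± 104 TPM and Mobp at 665 ± 92.1 TPM through Enpp2 at 516 ± 40.2, Cnp at 451 ± 76.6 and Cldn11 at 445 ± 84.4 TPM. Mbp stood clear of Mobp, while Cnp and Cldn11 differed by less than their spread. The least abundant were Ninj2 at 6.78 ± 1.66 TPM and Enpp6 at 6.70 ± 1.36 TPM, which also lay within their spread of each other.

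A few members were most abundant outside brain. Gjb1 was at 973 ± 127 TPM in KO and 929 ± 61.3 TPM in WT liver, against 55.0 ± 3.89 TPM in KO and 44.5 ± 3.65 TPM in WT brain. Trf, which hepatocytes secrete into plasma, was at 829 ± 73.6 TPM in KO and 759.8 ± 193 TPM in WT liver. Fa2h was highest in testis, at 87.4 ± 4.94 TPM in KO and 74.3 ± 5.91 TPM in WT libraries, which overlapped with its level in brain. Nkx6-2 and Gsn also had testis libraries within the range of their brain libraries. Cldn11, which also seals the Sertoli cell barrier, was at 129.7 ± 19.5 TPM in KO and 157 ± 30.1 TPM in WT testis.

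**Figure D4:**
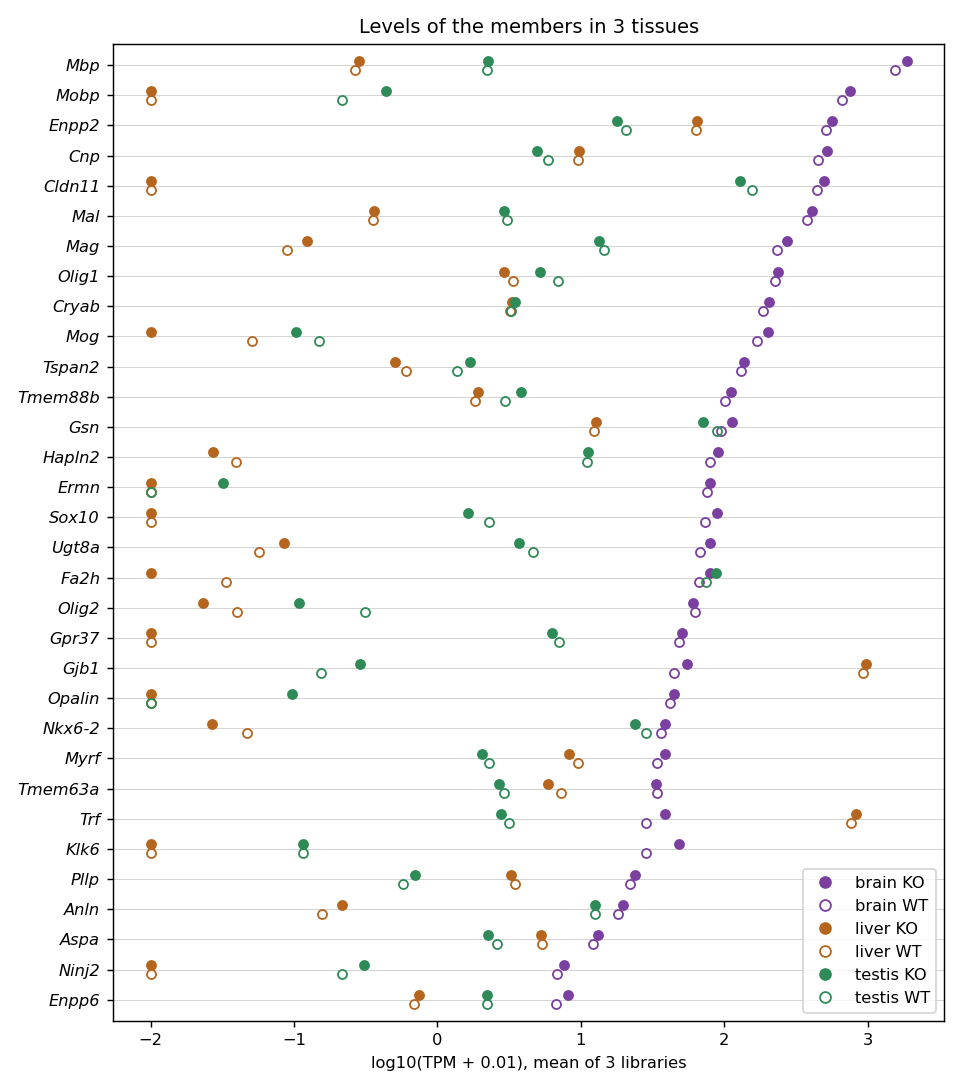
Level of each member as log10(TPM + 0.01), mean of 3 libraries, in brain (purple), liver (brown) and testis (green); filled symbols are KO and open symbols WT, and points at -2 are 0. Most genes lie highest in brain, from 1555 TPM for Mbp in WT brain down, while Gjb1 and Trf lie highest in liver and Fa2h in testis.

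In liver no member passed the test. Every KO library was above every WT library for 0 members, against 4.94% of all genes tested, and below for 0, against 4.58%. With 16 members tested, a count of 0 is close to those shares. Genes called as higher were 0.0212% of the 14124 genes tested in liver and genes called as lower 0%. With at least 10 reads in at least 3 libraries, 16 members could be tested, and 11 of those averaged higher in KO liver, 68.8% against 50.2% of all genes tested. Their median log2 fold change was 0.08, against 0.00 over all genes tested, and the lowest unadjusted p was 0.195, so 0 members were higher at an unadjusted p under 0.05, against 2.56% of all genes tested. Among the other 16 members, 8 had 0 reads in all 6 liver libraries, namely Klk6, Mobp, Cldn11, Ermn, Opalin, Sox10, Gpr37 and Ninj2. In all, 13 of the 32 genes averaged under 1 read per liver library.

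The most abundant members in liver were Gjb1 and Trf. Gjb1 measured 649, 587 and 709.7 FPKM in KO liver, against 622, 545 and 631 FPKM in WT liver. Trf measured 609, 499 and 554 FPKM in KO liver, against 455, 391 and 621 FPKM in WT liver. Both overlapped between genotypes, with log2 fold changes of 0.11 ± 0.11 for Gjb1 and 0.20 ± 0.18 for Trf. Enpp2 measured 39.0, 46.4 and 43.5 FPKM in KO liver, against 35.1, 43.1 and 44.4 FPKM in WT liver. Myrf measured 5.64, 5.47 and 5.36 FPKM in KO liver, against 6.07, 6.76 and 5.46 FPKM in WT liver, so its mean was lower in KO, at a log2 fold change of -0.14 ± 0.11. Olig1 was detected in liver at 3.46, 1.88 and 0.572 FPKM in KO libraries and 3.38, 1.69 and 1.52 FPKM in WT libraries, while Olig2 was at most 0.0619 FPKM.

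In testis, too, no member passed the test. Genes called as higher were 0% of the 22341 genes tested in testis and genes called as lower 0.00448%. Of 25 members tested, 11 averaged higher in KO testis, 44% against 56.5% of all genes tested. With total reads as library size, 7 members and 40.7% of all genes tested were higher. As reported, the 25 had a median log2 fold change of -0.07 against 0.03 over all genes tested, and the lowest adjusted p was 0.871 in limma. An unadjusted p under 0.05 with a higher KO level was found for Mobp, Fa2h and Tmem88b, 12% of those tested, against 2.45% of all genes tested. Every KO library was above every WT library for Fa2h, Mobp, Tspan2 and Tmem88b, 4 members and 16% of those tested, against 7.57% of all genes tested. Every KO library was below every WT library for Cnp, Ugt8a, Nkx6-2 and Gsn, against 4.32% of all genes tested.

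Fa2h measured 31.0, 28.6 and 31.5 FPKM in KO testis, against 25.8, 27.1 and 22.1 FPKM in WT testis. Its log2 fold change was 0.28 ± 0.10, with an unadjusted p of 0.0261 and an adjusted p of 0.871 in limma. Cldn11 measured 42.0, 50.3 and 42.4 FPKM in KO testis, against 48.1, 47.4 and 62.3 FPKM in WT testis. Gsn measured 24.0, 25.8 and 24.0 FPKM in KO testis, against 27.5, 26.0 and 36.2 FPKM in WT testis, and WT 3 was the highest library for both genes. Mobp was at most 0.209 FPKM in testis and Mbp at most 0.917 FPKM.

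**Figure D5:**
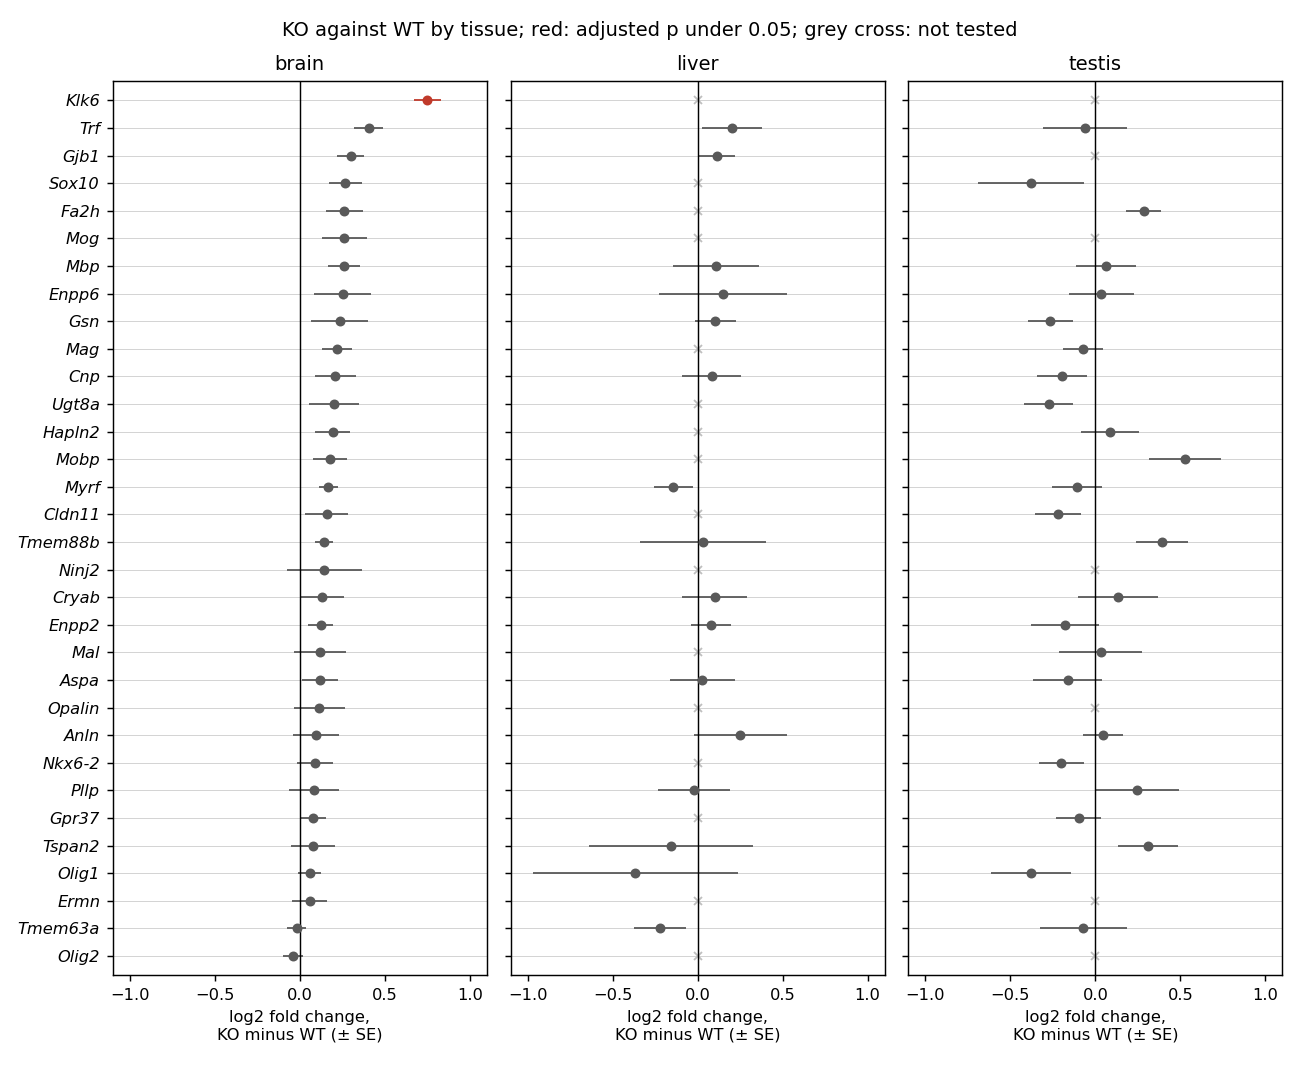
Log2 fold change of each member, KO minus WT, with its limma standard error in brain, liver and testis, ordered by the brain value; red marks an adjusted p under 0.05 and grey crosses mark genes that were not tested. In brain 30 of 32 points lie right of 0 and Klk6 is the 1 called, while in liver and testis the points lie on both sides.

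Whether the KO difference in brain departed from that in another tissue was tested directly. Between brain and liver, 0 of 16 members passed the interaction test, as did 0% of the 12922 genes tested in both tissues. The lowest adjusted p was 0.940 (limma), for Myrf, whose log2 difference was 0.31 higher in brain at an unadjusted p of 0.0196. Between brain and testis, 0 of 25 members passed, against 0.0626% of 15962 genes, and the lowest adjusted p was 0.928. Unadjusted p was under 0.05 for 3 of the 25, namely Ugt8a, Cnp and Myrf, at log2 differences of 0.48, 0.41 and 0.28. The share of all genes at that threshold was not computed. For Ugt8a and Cnp every KO library was below every WT library in testis, so their differences do not come from brain alone. Klk6 could not be compared in this way, as too few reads were found outside brain.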

How the data were processed

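The authors deposited FPKM per gene and library. Per the submitters' processing notes, the genome build was mm10 and the tools included HISAT2 2.0.5, featureCounts 1.5.0-p3 and DESeq2 1.16.1. FPKM times gene length gave whole multiples of 1 read for 100% of values within 0.01 reads, so reads per gene were recovered for depth and for filtering. The total of recovered reads was 1.44 to 1.52 times the library size implied by the FPKM in liver. It was 0.806 to 0.835 times that size in brain and 0.823 to 0.969 times in testis. Tests within a tissue were run in limma 3.58.1 under R 4.3.3, with a trend of variance on mean, on log2(FPKM + 0.1). A gene entered with 10 or more reads in 3 or more of the 6 libraries. Fold changes are on that log2 scale, which understates the change of low genes. P-values were adjusted by Benjamini-Hochberg over all genes tested, and a call is an adjusted p under 0.05. Differences between tissues used an interaction term on 12 libraries. The submitters' notes name a count test, but the deposited values are FPKM, so no count test was run here.

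The members, lists, motifs and tests were chosen with earlier results of these data known. The 1 symbol Sept4 of the further myelin genes was not matched. Full values are given for members called in any tissue, for members whose brain genotypes do not overlap and for the 5 most abundant in brain. In other lists the 2 most abundant genes may be named. The values of 1 of the further myelin genes are not reported here. Other values were chosen after they were seen.

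KO libraries 4 to 6 were paired with WT libraries 1 to 3 by the numbers in the file names to ask if they deviate together. In liver the 3 correlations of deviations were 0.354, 0.162 and 0.299, so the numbers were taken to pair the samples there, and the block changed no member's call. The liver values reported here come from fits without the block. In brain and testis the numbers were not taken to pair the samples, and KO 5 and WT 2 had a negative correlation in each. Between tissues, same-number correlations were 0.0547 to 0.236 for brain with liver and -0.0026 to 0.242 for brain with testis. The interaction tests reported here treat those libraries as independent. Under 3 alternatives, which included a block by number, 0 members passed them. Overlaps of exons came from GENCODE M21, in which 28 of the 32 members have the same coordinates. Alternatives covered pseudocount, filter, voom on recovered reads, scaling, a fit over 18 libraries, the replicate block and each library left out. Other steps used Python 3.11.15, pandas 2.3.3 and numpy 2.4.6, and figures matplotlib 3.10.9. The limma step was tested on simulated data.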

Additional observations from a re-analysis of the deposited data

How the results depend on the processing

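Each brain value was recomputed under 16 alternatives, and the 32 genes had 26 to 31 members higher in KO, at a median log2 fold change of 0.12 to 0.24, with 21 keeping their sign throughout. Klk6 was called under 8 of the 16, its log2 fold change was 0.68 to 0.81 over all 16, and the count of members called was 0 with a fit over 18 libraries (adjusted p 0.143), with the replicate block (adjusted p 0.144) and with any 1 library left out, a range of 0 to 0. No other member was called under any. The same-number correlations in brain were 0.0949, -0.0848 and 0.252, the last the highest of any KO and WT pair in brain. They were not taken to pair the libraries, and 3 correlations do not settle it. The block lowered the standard error of most members, as for Mag from 0.088 to 0.049. It raised that of a minority, as for Klk6 from 0.077 to 0.085. Over all genes, calls in brain numbered 15 as reported, 5 with 10 reads required in all 6 libraries, 21 without the filter, 26 with voom and quality weights, 27 in the 18-library fit, 9 with the block, and 8 to 12 with 1 library left out. In liver they numbered 3 as reported, 0 with 10 reads in all 6 libraries, 87 in the 18-library fit, and 2 to 5 with 1 library left out. In testis they numbered 1 as reported, 2 with voom or 10 reads in all 6 libraries, 5 with quality weights, 0 without the filter, 36 in the 18-library fit, and 0 to 3 with 1 library left out. With 1 library left out, the log2 fold change in brain took both signs for 11 members, with these ranges. They were Ermn (-0.018 to 0.18), Opalin (-0.019 to 0.30), Olig1 (-0.0061 to 0.10), Olig2 (-0.066 to 0.0066), Nkx6-2 (-0.0079 to 0.17) and Mal (-0.008 to 0.26). The others were Tspan2 (-0.025 to 0.19), Pllp (-0.095 to 0.18), Anln (-0.064 to 0.20), Tmem63a (-0.049 to 0.0097) and Ninj2 (-0.0008 to 0.34). Only 6 liver and 8 testis members were recomputed singly. Of those, this held in liver for Enpp2 (-0.028 to 0.14) and Cnp (-0.054 to 0.20), and in testis for Anln (-0.042 to 0.088), which was also -0.039 with quality weights and -0.036 with total reads as library size. With 1 library left out, 8 to 11 members were higher in KO liver and 9 to 11 in KO testis, so members not recomputed singly also changed sign. The members' median then ran from -0.021 to 0.12 in liver and from -0.14 to -0.042 in testis, where total reads gave -0.15 and 7 members higher. That scaling moved the share of all genes higher in KO testis to 40.7%, against 56.5% as reported. The cause of these turns was not tested. The median standard error of a member in brain was 0.11 on the log2 scale, with 3 libraries per genotype.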
